A study of Mus musculus with 6 samples.

Results

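The actin assembly and turnover genes are 38 named genes of the Arp2/3 complex, its activators, the formins, the Ena/VASP proteins, the capping proteins, cofilin, gelsolin, the coronins and their partners. Probe sets of the array were taken as theirs where the platform annotation named one of these genes and no other gene. That gave 89 of 45101 probe sets, for 34 of the 38 genes. Arpc1b, Arpc3, Actr2 and Twf1 had no probe set of that kind, and their expression was not analysed here. The samples were mouse megakaryocytes grown in culture from progenitors of fetal liver taken at day 13.5 of development and collected on a gradient of bovine serum albumin. The knockdown group held 3 samples titled Gata-1 Knock Down and the wild-type group 3 samples titled Gata-1 Wild Type, lettered A, B and C in each, with 1 Affymetrix array a sample. The labels name no strain, no second treatment and no way in which Gata1 was lowered. They also leave unstated if A, B and C were independent cultures or animals, so every p-value reflects the variation among these arrays alone, and that variation may be technical.

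Actin polymerises from monomers into filaments that grow at one end and are taken apart at the other. The Arp2/3 complex starts a new filament as a branch on an old one when WASP or WAVE proteins activate it, while formins start and lengthen straight filaments. Profilin and thymosin bind monomers, capping proteins close the growing end, and cofilin, with the help of the WDR1 protein, severs old filaments. Megakaryocytes use this machinery to move, to spread and to release platelets, and platelets use it to change shape.

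The libraries behaved as labelled at the targeted gene. The Gata1 probe set read 153.5, 143.3 and 194.7 in knockdown A, B and C and 8723.7, 8246.5 and 8495.6 in wild type, which is -5.52 ± 0.12 on the log2 scale (SE; limma adjusted p 2.89e-09). Megakaryocyte markers were bright in both groups: the summed signal of 10 markers lay between 92115 and 114607 in knockdown and between 140293 and 150171 in wild type. Of the 10, 8 were lower in knockdown, against 17.1% of all genes tested on the array. Knockdown B stood apart, with a median signal of 137.8 against 101.6 to 118.4 on the other arrays and a highest bacterial control signal of 132.0 against 60.7 to 82.2. The bacterial controls are probe sets for genes that mouse cells do not have, and a signal at or below the highest of them is treated as background. In bulk samples fewer cells of a type and less RNA per cell cannot be told apart.

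Most actin assembly genes were lower in knockdown, by modest amounts. Each gene was represented by its brightest probe set, and a gene was called where its limma adjusted p, over 31526 probe sets tested, was below 0.05. All 34 genes with a probe set passed the filter on dim probe sets. Of these 34, 21 were lower, 1 was higher and 12 did not pass the test. Of 14230 genes tested on the array, 17.1% were called lower, 18.3% higher and 35.5% either way. The median log2 fold change was -0.32 over the 34 genes and 0.03 over all genes tested. Over probe sets, 45 of 81 tested were lower and 5 were higher, against 14.3% and 16.1% of all probe sets tested, and the remaining 8 probe sets of the 89 were too dim to be tested.

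The falls had limited size at the brightest probe sets. Among the 21 lower genes 9 were lower by at least 1.5-fold, a size reached by 10.1% of all genes tested, and 12 fell by less. None was higher by that much at its brightest probe set, against 7.48% of all genes tested. The dimmer tested probe sets of Cttn were higher by 1.55-fold to 1.69-fold. The log2 fold changes of the called genes ran from -0.98, for Wipf1, to 0.42, for Cttn, at these probe sets. The size depended on the probe set, as dimmer ones fell further for some genes and less for others. A dimmer one fell 2.78-fold against 1.95-fold for Coro1a, and 1.40-fold against 1.92-fold for Capg. Bright genes are measured more precisely, so the count was also taken among genes with a mean log2 signal of 12 or more. There 12 of 19 members were called, 11 lower and 1 higher, against 63.6% of 1027 genes of that brightness, 308 lower and 345 higher. The share called was thus near the background, while the median log2 fold change was -0.25 over these members and 0.01 over all such genes. Without knockdown B, 21 genes were lower and 1 higher, a setting for which the share of all genes was not computed. On the deposited signals, all 3 knockdown arrays lay below all 3 wild-type arrays for 22 of the 34 genes and above them for 2, Cttn and Wasf1, against 20.4% and 29.1% of all genes tested.

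**Figure D1:**
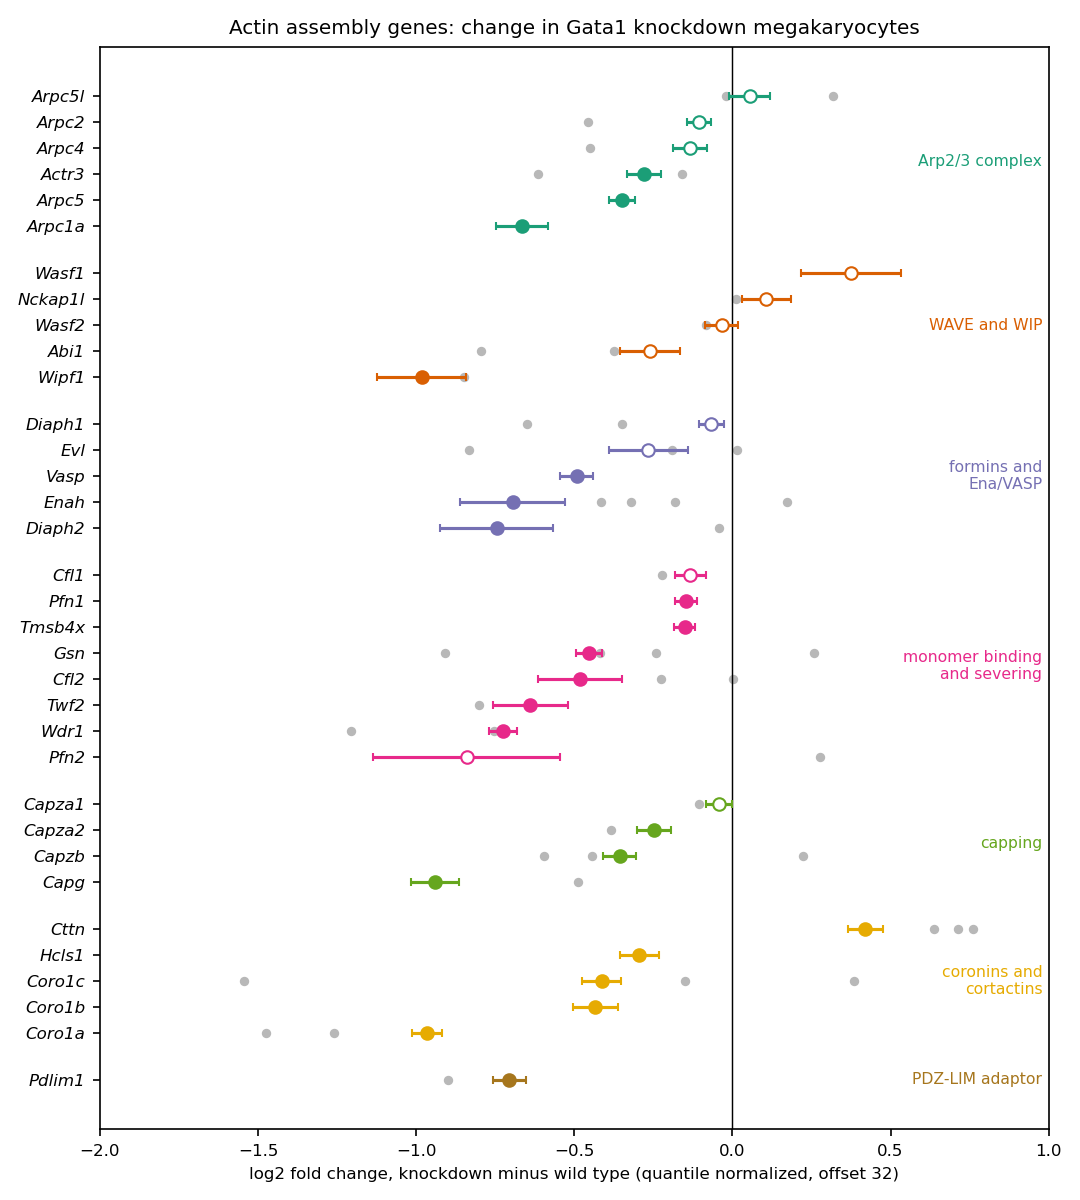
Log2 fold changes of 34 actin assembly genes, knockdown minus wild type, grouped by role. Large points are the brightest probe set of a gene with its SE from limma, filled where the adjusted p was below 0.05, and small grey points are the gene's other tested probe sets. Of the large filled points, 21 lie left of 0 and only that of Cttn lies right of it.

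Regions before the start of transcription were read for the letters that GATA and ETS factors and serum response factor are known to bind. RefSeq promoter windows of build GRCm38.p6, from 250 bases before to 50 after a gene's start, were found for 32 of the 38 genes. The GATA letters AGATAA and, as a variant, TGATAA, searched on both strands, occurred in the windows of 4 of the 32 genes, or 12.5%, against 21.0% of 27025 genes. These were Capza2, Cfl1, Hcls1 and Tmsb4x, whose log2 fold changes were -0.25, -0.13, -0.29 and -0.15. The core of an ETS site, CCGGAA, occurred for 12 of the 32 genes, or 37.5%, against 16.7% of all genes. They were Actr2, Actr3, Arpc1a, Arpc3, Arpc4, Capza1, Capzb, Cfl1, Coro1a, Coro1c, Tmsb4x and Wdr1, of which Actr2 and Arpc3 have no expression value here. The CArG box, where serum response factor binds, was searched only as the exact letters CCWWWWWWGG, with W for A or T. It occurred for 1, Arpc4, against 1.81% of all genes. Near matches, such as ctatatatgg in the Wdr1 stretch below, were neither counted nor marked. Below are the 250 bases before the start of 2 genes with large falls, Wdr1 and Coro1a, and of 2 with GATA letters, Hcls1 and Tmsb4x. Capitals mark these GATA letters and the ETS core, read on either strand, and the stretch shown for Coro1a, before the most upstream of its starts, holds none of them. Its ETS core lies 10 bases before another of its starts, whose window is not printed.
Wdr1 (chr5:38561700-38561949, minus strand): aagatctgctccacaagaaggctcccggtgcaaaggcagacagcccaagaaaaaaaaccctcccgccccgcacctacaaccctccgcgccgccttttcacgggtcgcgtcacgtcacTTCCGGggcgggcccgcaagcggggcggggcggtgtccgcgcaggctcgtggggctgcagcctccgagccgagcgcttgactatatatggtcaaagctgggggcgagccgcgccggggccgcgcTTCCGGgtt
Coro1a (chr7:126704817-126705066, minus strand): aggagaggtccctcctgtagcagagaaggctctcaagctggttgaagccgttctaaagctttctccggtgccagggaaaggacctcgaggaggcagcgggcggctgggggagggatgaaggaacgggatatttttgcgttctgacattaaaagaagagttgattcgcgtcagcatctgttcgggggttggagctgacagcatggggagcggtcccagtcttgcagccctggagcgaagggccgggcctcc
Hcls1 (chr16:36934733-36934982, plus strand): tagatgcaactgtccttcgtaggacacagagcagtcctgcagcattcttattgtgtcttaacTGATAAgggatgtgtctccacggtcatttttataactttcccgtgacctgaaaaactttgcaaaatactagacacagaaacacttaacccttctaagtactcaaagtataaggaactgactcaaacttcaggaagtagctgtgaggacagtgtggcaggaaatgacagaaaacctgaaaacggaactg
Tmsb4x (chrX:167209219-167209468, minus strand): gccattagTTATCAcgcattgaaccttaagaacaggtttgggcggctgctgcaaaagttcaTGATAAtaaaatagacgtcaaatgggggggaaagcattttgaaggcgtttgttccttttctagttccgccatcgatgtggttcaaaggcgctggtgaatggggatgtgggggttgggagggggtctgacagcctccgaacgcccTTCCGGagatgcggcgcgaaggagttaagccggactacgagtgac
No binding was measured here, and a match is a description of letters only.

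Subunits of the Arp2/3 complex were lower or did not pass. Of 6 with a probe set, 3 were lower, none was higher and 3 did not pass, with a median log2 fold change of -0.21. Among all genes tested, 17.1% were lower and 18.3% higher, so the absence of a higher gene among so few is not read as a result. Arpc1a, a WD-repeat subunit, read 1796.1, 1657.6 and 1958.6 in knockdown and 3273.1, 2773.0 and 2878.1 in wild type. The groups did not overlap, and the log2 fold change of -0.66 ± 0.08 (SE; limma adjusted p 0.000155) was the largest of the complex in size. Arpc5, the smallest subunit, read 7596.4, 7871.2 and 8242.9 against 10403.3, 10145.0 and 10368.4, a change of -0.35 ± 0.04 (limma adjusted p 0.000128). Every knockdown array lay below every wild-type array. Actr3, which encodes the actin-related subunit Arp3, read 8008.7, 9245.9 and 9433.6 against 11243.2, 10382.1 and 11042.8, a change of -0.28 ± 0.05 (limma adjusted p 0.00296). All 3 of its probe sets were lower, and in 1 of them knockdown B, at 3902.6, lay far below knockdown A and C, at 7357.1 and 6434.6.

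The other 3 subunits did not pass at their brightest probe sets. Arpc4 averaged 5627 ± 304 against 6609 ± 86.1 in wild type (SD, n = 3 each), without overlap. Its log2 fold change of -0.13 ± 0.05 did not pass (limma adjusted p 0.0923), while its dimmer probe set was lower, at -0.45 ± 0.05. The brightest was called lower as deposited, at -0.23, and with arrays centred on their medians, at -0.43 (limma adjusted p 0.0125 and 0.00157). It was also called lower without knockdown B (limma adjusted p 0.0124). Arpc2, part of the core of the complex, had -0.11 ± 0.04 (limma adjusted p 0.0561), with overlapping arrays, and its dimmer probe set had -0.46 ± 0.15. Arpc5l, a second form of the smallest subunit, read 2392 ± 149 against 2382 ± 87.3, and 1 of its 2 dimmer tested probe sets was higher, at 0.32 ± 0.10. The change of Arpc5 less that of Arpc5l, taken within each array, was -0.40 ± 0.05 (SE), and the knockdown arrays did not overlap with wild type.

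Activators of the complex were not alike. The WIP gene Wipf1, whose protein holds and stabilises WASP, had the largest fall of the 34 genes, next to Coro1a. It read 2894.5, 1788.8 and 2019.6 in knockdown and 4217.4, 4739.0 and 4738.2 in wild type, a log2 fold change of -0.98 ± 0.14 (SE; limma adjusted p 0.000407). Knockdown A was the highest of its group, though still below all wild-type arrays, and the other probe set, at -0.85 ± 0.06, had a closer spread. After quantile normalization the WAVE complex genes among the 34 did not pass at their brightest probe sets. Wasf2 (WAVE2) had -0.03 ± 0.05, the hematopoietic subunit Nckap1l 0.11 ± 0.08 and the adaptor Abi1 -0.26 ± 0.09, with limma adjusted p of 0.677, 0.357 and 0.0616. One dimmer probe set of Abi1 was lower, at -0.37 ± 0.08. Its brightest was called lower with arrays centred on their medians, at -0.54, and as deposited, at -0.34 (limma adjusted p 0.0124 and 0.0208). Wasf2 was called lower with arrays centred on their medians, at -0.32 (limma adjusted p 0.0220), but not as deposited. Nckap1l passed under neither. WAVE complex genes outside the 34, named after their values were seen, were called in both directions after quantile normalization. Nckap1 and Abi3 were lower, at -0.72 ± 0.07 and -0.65 ± 0.14 (limma adjusted p 2.77e-05 and 0.00569). Cyfip2 and Brk1 were higher, at 0.54 ± 0.09 and 0.25 ± 0.04 (limma adjusted p 0.000860 and 0.00197), while Abi2 and Wasf3 did not pass.

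Wasf1 (WAVE1) lay on the other side of 0. It read 394.5, 380.7 and 287.8 in knockdown and 244.9, 272.0 and 203.9 in wild type, without overlap, at 0.37 ± 0.16 (limma adjusted p 0.105). It was called higher with the values as deposited, at 0.50 (limma adjusted p 0.0352), and without knockdown C, at 0.50 (limma adjusted p 0.0450). The change of Wasf1 less that of Wasf2 within each array was 0.41 ± 0.12, again without overlap.

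Among the formins and Ena/VASP proteins, 3 of 5 genes were lower and none was higher, against 17.1% and 18.3% of all genes tested. With so few genes, the absence of a higher one is not read as a result. Vasp, a filament elongation factor of platelets and a substrate of cyclic nucleotide kinases, read 5349.7, 4746.7 and 5027.3 in knockdown and 7328.1, 7508.9 and 7640.6 in wild type. Its arrays did not overlap, and the log2 fold change was -0.49 ± 0.05 (SE; limma adjusted p 5.74e-05). Its relative Enah read 1804.2, 1009.1 and 1247.9 against 2052.9, 2297.7 and 2195.4, at -0.69 ± 0.17 (limma adjusted p 0.00954), with a wide spread in knockdown. Of 5 tested Enah probe sets 2 were lower and 3 did not pass. The other relative, Evl, had -0.27 ± 0.13 at its brightest probe set (limma adjusted p 0.147) and -0.83 ± 0.15 at a dimmer one, which was called.

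The diaphanous formins differed between their probe sets. The brightest Diaph1 probe set averaged 10058 ± 223 against 10582 ± 126 in wild type (SD, n = 3 each), without overlap, and did not pass, at -0.07 ± 0.04 (limma adjusted p 0.252). Its dimmer probe sets were both lower, at -0.35 ± 0.06 and -0.65 ± 0.15. Diaph2 was dim throughout, at 109.6, 126.5 and 91.6 against 168.8, 186.8 and 173.1. Its log2 fold change was -0.75 ± 0.18 (limma adjusted p 0.00934), although knockdown B lay at or below its bacterial controls and the second probe set had -0.04 ± 0.25.

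Genes for severing filaments and binding monomers were mostly lower. Of 8 tested, 6 were lower, none was higher and 2 did not pass, where 17.1% of all genes tested were lower and 18.3% higher. Wdr1, whose protein speeds disassembly by cofilin, read 5386.7, 5605.7 and 5627.2 in knockdown and 9830.3, 9468.4 and 9618.3 in wild type. The groups were far apart relative to their spread, at a log2 fold change of -0.73 ± 0.04 (SE; limma adjusted p 1.25e-06), and all 3 probe sets were lower, up to -1.21 ± 0.06. Twf2, a twinfilin that holds actin monomers, read 3012.4, 1988.4 and 2341.0 against 3928.0, 3789.8 and 4153.4, at -0.64 ± 0.12 (limma adjusted p 0.00207). Both of its probe sets were lower, and knockdown B was the lowest array of each.

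The cofilin genes were near the threshold. Cfl1, the cofilin of nonmuscle cells, read 12729.0, 13963.3 and 13475.8 in knockdown and 14485.2, 12843.6 and 14258.3 in wild type. These arrays overlapped, and the log2 fold change of -0.13 ± 0.05 did not pass (limma adjusted p 0.0630), while the dimmer probe set was lower, at -0.22 ± 0.05. The brightest was called lower without knockdown A or wild type B (limma adjusted p 0.0180 and 0.0280). Cfl2, the muscle cofilin, read 664.4, 475.4 and 492.3 against 695.5, 682.5 and 810.8, at -0.48 ± 0.13 (limma adjusted p 0.0197). That call was lost without knockdown B, knockdown C or wild type C (limma adjusted p 0.0535, 0.0774 and 0.0960), and its other 2 probe sets did not pass. Gelsolin, Gsn, which severs and then caps filaments in response to calcium, was lower in 4 of 5 tested probe sets, and the brightest read 10291 ± 665 against 13618 ± 390 (SD, n = 3 each), at -0.45 ± 0.04 (limma adjusted p 1.80e-05). The fifth did not pass, at 0.26 ± 0.13.

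The main monomer-binding genes were among the brightest on the array, and the sign of their small changes moved with how arrays were scaled. Tmsb4x, which encodes thymosin beta 4, read 21203.3, 28457.1 and 25672.7 in knockdown and 23171.2, 21181.8 and 22177.5 in wild type. As deposited its knockdown mean was the higher, and the groups overlapped. After quantile normalization its log2 fold change was -0.15 ± 0.03 (SE; limma adjusted p 0.00549), with the values as deposited 0.17 (limma adjusted p 0.217) and with arrays centred on their medians -0.03 (limma adjusted p 0.860). The profilin gene Pfn1 read 15962.6, 18602.1 and 18120.5 against 16420.9, 15767.3 and 16819.1, also with overlap. Its values under the same 3 scalings were -0.15, 0.10 and -0.09, with limma adjusted p of 0.00965, 0.302 and 0.421. The Tmsb4x signals on wild type A and B stood as the highest of all probe sets there. The neuronal profilin Pfn2 had at most 133.7 on any array and did not pass at either tested probe set. The brightest had -0.84 ± 0.30 (limma adjusted p 0.0568), at background on 2 knockdown arrays, and the other 0.28 ± 0.30. Without knockdown C, Pfn2 was called lower (limma adjusted p 0.0277).

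**Figure D2:**
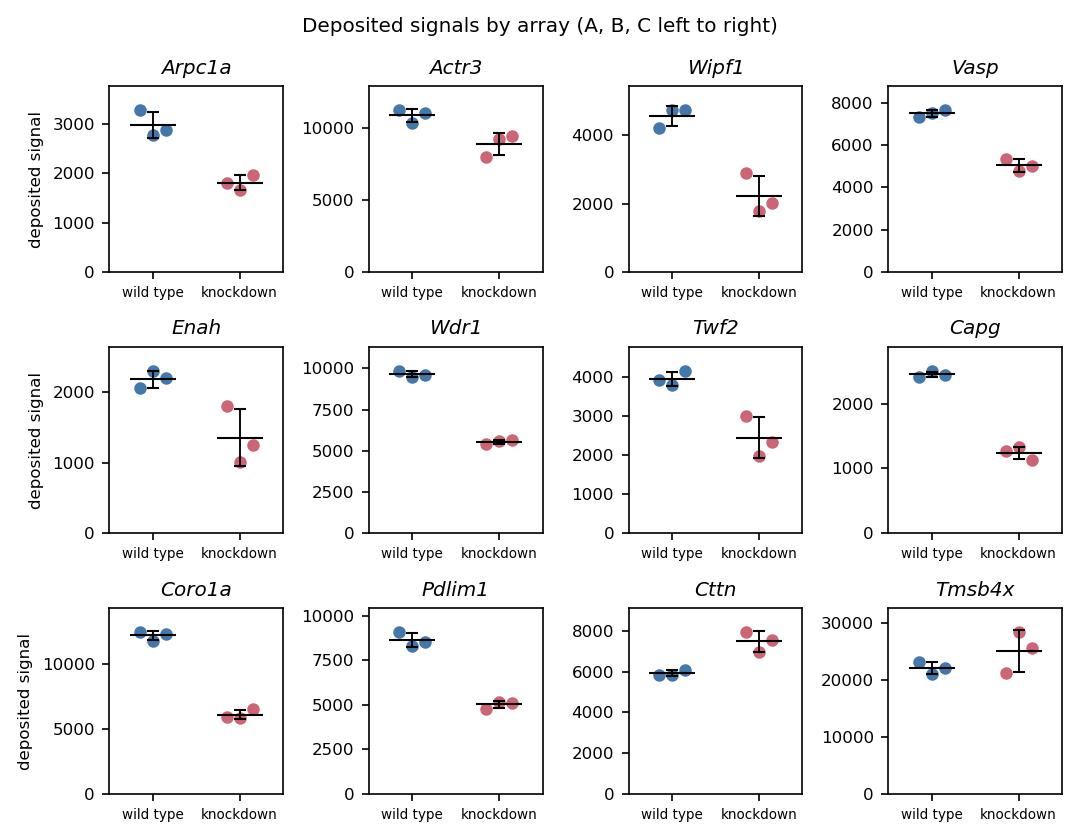
Deposited signals of 12 genes on each array, linear axes from 0, with points for A, B and C from left to right, bars for the mean and whiskers for the SD (n = 3 each). The knockdown points lie below all wild-type points in 10 panels, above them for Cttn, and overlap them for Tmsb4x.

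Capping protein genes were lower or did not pass. Capg, a gelsolin relative that caps without severing and is abundant in macrophages, read 1266.3, 1324.5 and 1134.6 in knockdown and 2423.5, 2506.1 and 2440.3 in wild type. With no overlap, its log2 fold change was -0.94 ± 0.08 (SE; limma adjusted p 8.42e-06). Capzb, the beta subunit of the capping heterodimer, read 7100.3, 8164.1 and 7782.0 against 10247.2, 9753.6 and 10312.8, at -0.36 ± 0.05 (limma adjusted p 0.000407). Its other 2 bright probe sets were lower too, at -0.44 ± 0.05 and -0.60 ± 0.06. Of the alpha subunits, Capza2 read 5893.1, 6472.1 and 5792.4 against 7695.2, 7501.6 and 7591.2, at -0.25 ± 0.05 (limma adjusted p 0.00582), and Capza1 had -0.04 ± 0.04 (limma adjusted p 0.506). The within-array difference between the changes of Capza1 and Capza2 was 0.20 ± 0.07, with no overlap of the groups.

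The 3 coronin genes of the list, Coro1a, Coro1b and Coro1c, fell and cortactin rose. Coro1a, the coronin of blood cells, read 5891.0, 5847.2 and 6484.8 in knockdown and 12418.2, 11778.5 and 12311.2 in wild type, with a log2 fold change of -0.97 ± 0.05 (SE; limma adjusted p 2.39e-07). All knockdown arrays lay far below wild type, and the dimmer probe sets had larger falls, -1.48 ± 0.08 for one and -1.26 ± 0.18 for another, which lay at background on 2 of the 3 knockdown arrays. Coro1b read 3075.5, 3577.7 and 3158.0 against 4758.2, 4505.9 and 4713.7, at -0.43 ± 0.07 (limma adjusted p 0.00104). Coro1c had -0.41 ± 0.06 (limma adjusted p 0.000512) at its brightest probe set, and of its other 3 probe sets 1 was lower and 2 did not pass. The change of Coro1a less that of Coro1b within each array was -0.53 ± 0.10, without overlap.

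Cttn, which encodes the cortactin that stabilises Arp2/3 branches, was the 1 gene higher in knockdown. It read 7924.3, 6944.8 and 7555.0 in knockdown and 5849.0, 5853.2 and 6089.3 in wild type, at 0.42 ± 0.06 (SE; limma adjusted p 0.000272). No knockdown array overlapped with wild type, and all 4 tested probe sets were higher, by 0.42 to 0.76. With arrays centred on their medians the brightest probe set did not pass, at 0.14 (limma adjusted p 0.418), while the other 3 were still called, at 0.38, 0.44 and 0.58. Its blood cell counterpart Hcls1 went the other way, with a mean of 2126 ± 81.5 against 2703 ± 42.8 in wild type (SD, n = 3 each), at -0.29 ± 0.06 (limma adjusted p 0.00463). The difference between the changes of Cttn and Hcls1 within each array was 0.71 ± 0.09, and the groups did not overlap.

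Pdlim1, whose PDZ and LIM domain protein links alpha-actinin to other proteins, was given by array after its values were seen. It read 4795.3, 5162.6 and 5124.8 in knockdown and 9087.5, 8335.5 and 8540.3 in wild type, without overlap, at -0.71 ± 0.05 (SE; limma adjusted p 5.17e-06). Its other tested probe set lay at background on all knockdown arrays and did not pass.

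Several of these genes are known for high expression in myeloid cells, among them Coro1a, Hcls1, Nckap1l, Wipf1 and Capg, and markers of such cells were low there too. Among 11 markers of neutrophils and monocytes, 8 were lower and none was higher, and their summed signal lay between 3316 and 3466 in knockdown and between 11450 and 11918 in wild type. Of 11 tested macrophage markers all were lower, and the sum of 12 lay between 7941 and 7961 against 21354 to 21929. Of these markers Marco was at background on all arrays. Of 10 mast cell markers 7 were lower and 1 was higher, with sums of 1967 to 2231 against 4724 to 5387. Among all genes tested on the array, 17.1% were lower and 18.3% higher. The part of these cells in the falls of the actin genes was not tested. Nckap1l did not follow these markers, with overlapping arrays at both probe sets.

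Markers of other cells were read in the same way, beside the same shares of all genes tested, 17.1% lower and 18.3% higher. Of 5 erythroid markers 2 were lower, with sums of 2558 to 2637 against 14346 to 14547, a gap mostly of the embryonic globin Hbb-y and Epor. Of 7 tested lymphoid markers 1 was lower, with sums of 1396 to 2034 against 2237 to 2493, and of 4 tested hepatocyte markers 1 was lower, with sums of 551 to 805 against 1218 to 1391. Beside that share, 1 lower gene among so few markers is not read as a result about either cell type. Stromal and smooth muscle markers had no call among 6 tested, with sums of 983 to 1467 against 1049 to 1182. Of 7 endothelial markers 3 were higher and 2 lower, with sums of 5570 to 6456 against 6323 to 6418. Pax5, Apoa1, Fgb, Pdgfrb and Tagln were at background on all arrays. The part of these cells was not tested either.

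Related genes were set against each other within arrays. Of 15 pairs of relatives, 12 could be compared, and the 3 others each lacked a probe set for one gene. In 9 of the 12 the difference between the log2 signals of the pair did not overlap between the groups. Single genes often did not overlap either, 20.4% of all genes tested being lower and 29.1% higher on every array, and no share for gene pairs in general was computed, so nothing particular to these relatives is read from the 9. The exact permutation test, two-sided over 3 and 3 arrays, gave each of the 9 a p of 0.10, the smallest this design allows, and 0.133 after Benjamini-Hochberg adjustment over the 12 pairs, so none passes a threshold of 0.05. The 3 pairs whose groups overlapped were Pfn1 and Pfn2, Coro1b and Coro1c, and Vasp and Enah. Coro1b and Coro1c had nearly equal falls, with a difference of -0.02 ± 0.06. The largest gaps without overlap were those of Cttn and Hcls1 and of Diaph1 and Diaph2, the latter at 0.68 ± 0.08 and resting on the dim Diaph2.

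**Figure D3:**
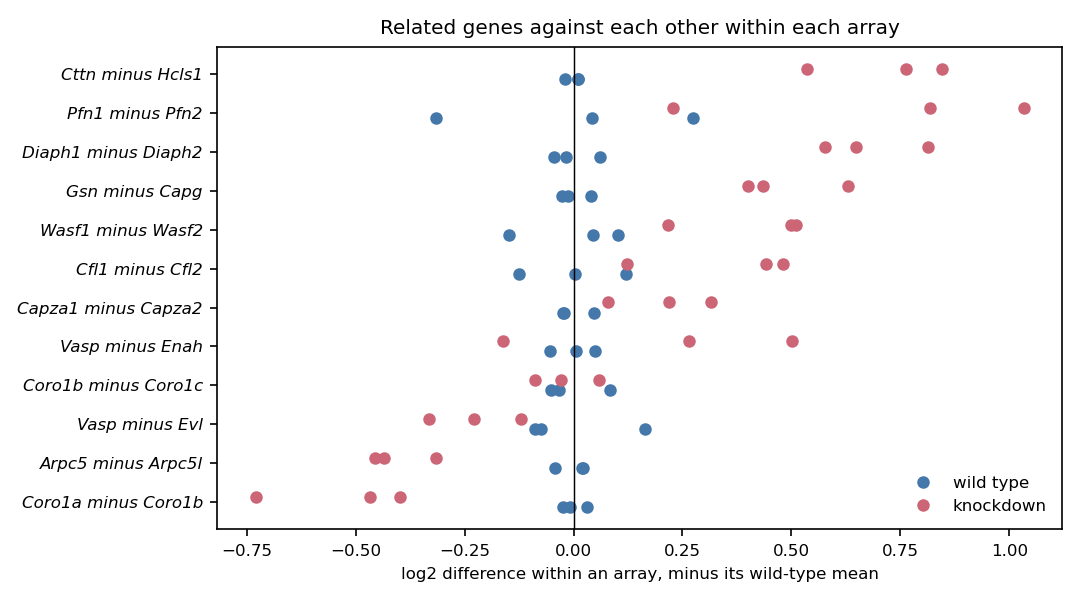
Log2 difference between 2 related genes on each array, less its mean over the wild-type arrays, for 12 pairs. Blue points are the 3 wild-type and red points the 3 knockdown arrays, and the groups are apart in 9 pairs, narrowly so for Cfl1 and Cfl2, Capza1 and Capza2, and Vasp and Evl.

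Several probe sets of a gene did not always tell the same story. Among 26 genes with more than 1 tested probe set, 7 were lower in all of them, 1 was higher in all, and 4 were called in none. In 13 some probe sets were lower while others did not pass, in 1, Arpc5l, one was higher while others did not pass, and in none were probe sets called in opposite directions. With any probe set counted, 27 of the 34 genes were lower somewhere, and 6 of these, Arpc2, Arpc4, Cfl1, Diaph1, Evl and Abi1, only at a dimmer probe set. The share of all genes lower at any probe set was not computed, and more probe sets give a gene more ways to be called. Nothing particular to these genes is therefore read from the 27. Probe sets of a gene can read different transcripts, and which transcripts these read is not given in the sources used here.

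The scaling of the arrays set the size of the falls more than their direction. The signals needed a common scale because array medians spanned 0.35 on the log2 scale. The median log2 fold change of the 34 genes was -0.32 after quantile normalization, -0.36 as deposited and -0.56 with arrays centred on their medians, where that of all genes tested was 0.03, 0.12 and -0.08. Under these scalings 21, 21 and 25 of the 34 genes were lower, against 17.1%, 16.3% and 20.8% of all genes tested. Called lower under all 3 were 19 genes, which are the 21 without Tmsb4x and Pfn1. Higher were 1, 2 and 0 genes, namely Cttn, Cttn with Wasf1, and none, against 18.3%, 21.1% and 8.36%. Leaving out any single array kept the calls of 19 of the 21 lower genes, the exceptions being Cfl2 and Pfn1, whose call was lost without wild type C (limma adjusted p 0.0571).

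**Figure D4:**
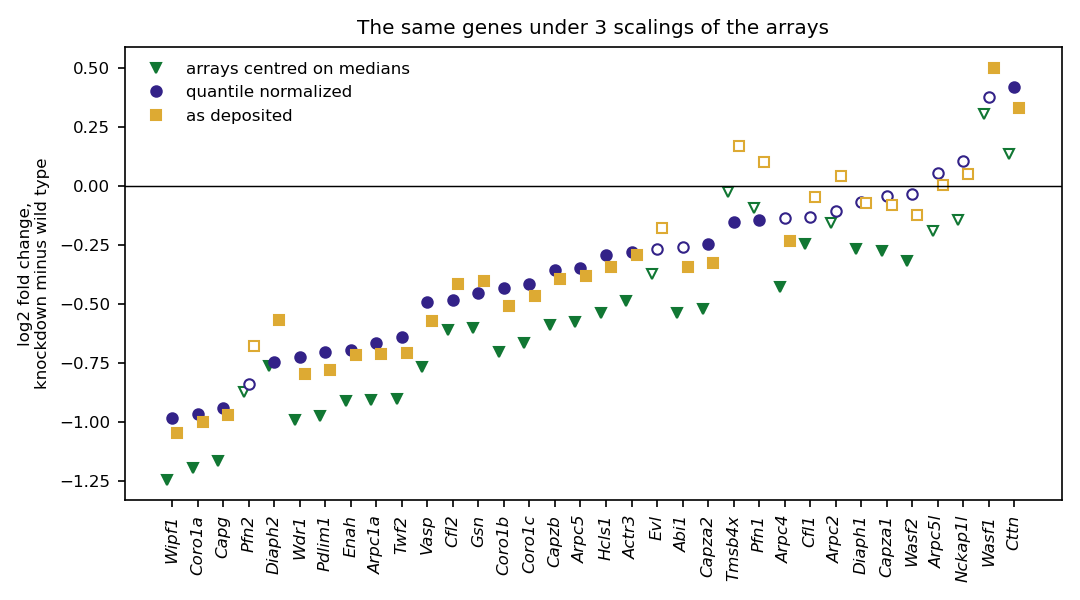
Log2 fold changes, knockdown minus wild type, of 34 genes with arrays quantile normalized, centred on their medians or as deposited, ordered by the first and filled where the limma adjusted p was below 0.05. Centring on medians gives the lowest value for most genes, and Tmsb4x and Pfn1 lie above 0 only as deposited.

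Other genes of actin biology changed in both directions. Of a list of 68, 64 had a probe set and 62 were tested, of which 24 were lower, 13 were higher and 25 did not pass. Of all genes tested on the array, 17.1% were lower and 18.3% higher, so the count of higher genes was near the background. The median log2 fold change was -0.16 over these 62 genes and 0.03 over all genes tested. With arrays centred on their medians 26 were lower and 5 higher, against 20.8% and 8.36% of all genes tested. Without knockdown C or without wild type B, 8 were higher, and the share of all genes was not computed there. The largest falls were those of the crosslinkers alpha-actinin 1, Actn1, at -1.99 ± 0.07 (SE), L-plastin, Lcp1, at -1.77 ± 0.09 and filamin A, Flna, at -1.62 ± 0.05. The formin Daam1 fell from 8339 ± 198 to 3263 ± 48.5 (SD, n = 3 each), at -1.28 ± 0.05. The largest limma adjusted p of these 4 was 3.04e-07.

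The largest rises were those of Coro2a, Cap1, Pdlim5 and Limk2. Cap1, the cyclase-associated protein that recycles cofilin-bound monomers, rose from 5483 ± 90.0 to 12759 ± 617 (SD, n = 3 each), or by 1.24 ± 0.05 on the log2 scale (limma adjusted p 3.92e-08). The coronin Coro2a rose by 1.41 ± 0.10 (another coronin, Coro7, named after its value was seen, by 0.39 ± 0.10), the PDZ-LIM gene Pdlim5 by 0.88 ± 0.12 and Limk2, a kinase that inactivates cofilin, by 0.56 ± 0.10. Cap1, Coro2a, Pdlim5 and Limk2 were also higher with arrays centred on their medians, at 1.02, 1.26, 0.63 and 0.44. Other genes that act on monomers or cofilin were lower, also named after their values were seen: Dstn, a relative of cofilin, at -1.12 ± 0.05, the cofilin phosphatase Ssh1 at -0.71 ± 0.21, Cap2 at -0.36 ± 0.08 and Tmsb10 at -0.19 ± 0.04, while Ssh2 was higher, at 0.28 ± 0.08. With arrays centred on their medians Coro7 and Ssh2 no longer passed (limma adjusted p 0.167 and 0.760), nor did Tmsb10 with the values as deposited (0.0829). Coro2a and Pdlim5 differed in direction from Coro1a and Pdlim1, a difference that was not tested.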

How the data were processed

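Gene expression was measured on 6 arrays, 3 knockdown and 3 wild type, grouped by the sample titles. The deposited table holds linear intensity values, judged from their range, and the mean of each column with 2% trimmed at each end was 500.0, so the authors had scaled the arrays. The sources used here name no software for this step. The number of arrays limits the precision.

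Signals were taken as log2(signal + 32) and quantile normalized, which removes any shift common to all genes and understates changes of dim genes. The 64 control probe sets and probe sets below the 30th percentile of mean log2 were left out. limma (version 3.58.1, R 4.3.3) used lmFit and eBayes with an intensity trend and group as the only term, two-sided, with Benjamini-Hochberg adjustment over 31526 probe sets, and was tested on simulated data. Mean ± SD values are of deposited signals. The background of an array is the highest of 27 bacterial control signals. Symbols were updated through gene numbers of GRCm38.p6: 34945 probe sets had 1 symbol, 932 several and 9160 none.

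Values by array are given for up to 3 called genes of each role with the largest changes and for Tmsb4x, Cfl1 and Pfn1, and for others after their values were seen. Of the other actin genes the 4 largest rises and falls are named. The members, lists and pairs were chosen with earlier results of these data known. Alternatives were other offsets, scalings and filters, the mean of a gene's probe sets, a replicate block and leaving out each array.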

Additional observations from a re-analysis of the deposited data

How the results depend on the processing

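The counts of lower members ranged from 19 to 25 over all alternatives, of 34 tested or, with the filter at the 50th percentile, 33. Shares of all genes called were computed only for the scalings of the arrays. Counts under the other settings, of members or of other actin genes, thus have no background beside them. Gata1 was called lower under every alternative, at -5.79 to -5.07. With arrays centred on their medians the median of the members moved to -0.56, and 0 members and 5 other actin genes were higher. Higher members numbered 2 with the values as deposited, and 1 to 2 when an array was left out, while higher other actin genes numbered 8 to 14 then. Tmsb4x and Pfn1 turned to 0.17 and 0.10 with the values as deposited. Averaging each gene's probe sets left 6 pairs without overlap between the groups, and other settings 8 to 10. With that average Arpc5, Cfl2, Diaph2 and Enah no longer passed (limma adjusted p 0.228, 0.241, 0.0807 and 0.285). The average also takes in probe sets too dim to be tested. For Arpc5 it joins the bright probe set with one that lay at background on all arrays. Over 266 values of 19 named members, 12 lost their call and kept their sign, and 5 gained a call. Another 2, those of Tmsb4x and Pfn1 as deposited, changed sign and were not called (limma adjusted p 0.217 and 0.302). All 5 gains were of Cfl1. It was lower with arrays centred on their medians, the filter at the 50th percentile and the average of its probe sets (limma adjusted p 0.0473, 0.0488 and 0.0119). It was also lower without knockdown A and without wild type B (limma adjusted p 0.0180 and 0.0280). The letters A, B and C share no stated origin, and deviations of same-lettered arrays correlated at -0.04, -0.02 and -0.01. A replicate block gave 20 lower members in place of 21, and the limma adjusted p of Pfn1 was 0.0527. The pairs were not recomputed with it. Signals near the bacterial controls limit what Pfn2, Diaph2 and the dimmer probe sets can show.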
